A study of Mus musculus with 4 samples.

Results

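The WAVE complex and its IRSp53 relatives join Rac signalling to the growth of branched actin under the cell membrane. Of 9 such genes, 8 were measured here in mouse hearts, namely Cyfip2, Nckap1, Wasf1, Wasf2, Abi1, Abi2, Baiap2 and Baiap2l1, each by 1 probe set. Cyfip1 had no named probe set and is not analysed here, so the Cyfip subunit was read through Cyfip2 only. Members were taken by gene symbol from a table in which 19505 genes had a named probe set. The list was drawn up with results of these arrays known. Cyfip2 and Baiap2l1 were chosen by their differences between injections, Cyfip2 for a low value at day 30 and Baiap2l1 for a high value at day 7, and their partners and paralogues were added to them. Values of Cyfip2 and Baiap2l1 are therefore a description, with no test.

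The series held 4 arrays of heart RNA from outbred ICR (Jcl:ICR) mice injected as newborns with PBS or with a viral vector for the T-box transcription factor Tbx6. The groups were PBS at day 7, Tbx6 at day 7, PBS at day 30 and Tbx6 at day 30 after injection, with 1 array each. The labels give the injection as subcutaneous in one field and as into the heart in others, and the controls received no vector. The sources used here do not give the number of hearts per array, the sex of the animals or the promoter of the vector. In whole heart RNA, fewer cells of a type and less RNA per cell cannot be told apart.

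In the WAVE complex a Cyfip protein and Nckap1 hold a WAVE protein (Wasf1 or Wasf2 here), an Abi protein and the small subunit Brk1 in an inactive state. Binding of active Rac to the Cyfip subunit frees the tail of the WAVE protein, which then turns on the Arp2/3 complex, the machine that starts actin branches. Cyfip proteins were also found as partners of FMRP, an RNA-binding protein, and of the cap-binding factor eIF4E. IRSp53, encoded by Baiap2, and IRTKS, encoded by Baiap2l1, bend membranes with an I-BAR domain and connect Rac and Cdc42 to WAVE and to other actin regulators.

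All 8 cardiomyocyte markers examined, Myh6 and Tnnt2 among them, were well above background on every array, which fits the labelled tissue. Values are on the log2 scale, so a difference of 1 is 2-fold. The words at background mean that a reading did not exceed the highest of the 23 background probe sets of its array (5.77 to 6.05). Where a comparison holds 1 such reading, the text gives a bound (at least), and where it holds 2, no difference. The 6 members past the expression filter (a mean of at least 5.30) are compared with the 9753 genes past it, and Wasf1 and Baiap2 were below it. On the PBS array of day 7 the airway genes Scgb1a1 (12.89) and Scgb3a1 (10.80) were high and on the other 3 arrays they were at background, so this array stood apart.

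**Figure D1:**
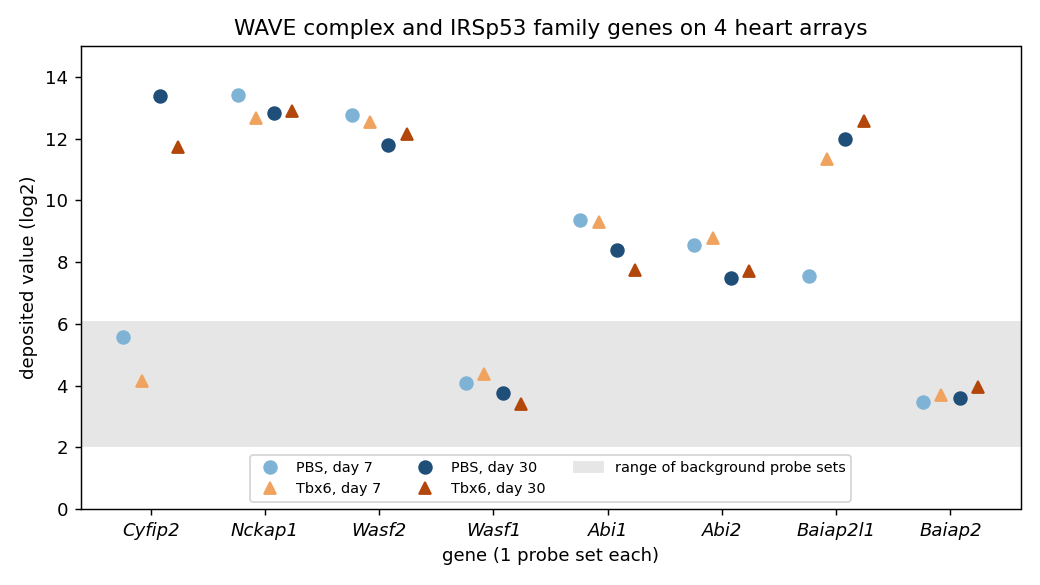
Deposited log2 value of each gene (vertical axis) on the 4 arrays (circles PBS, triangles Tbx6, light day 7, dark day 30); the grey band spans the background probe sets. Cyfip2 lies inside the band on both day 7 arrays and at 13.37 and 11.74 on the day 30 arrays, Wasf1 and Baiap2 lie inside it throughout, and Baiap2l1 is low only on the day 7 PBS array.

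Cyfip2, which encodes a form of the Rac-binding subunit, differed more between the days than any other measured member. It read 5.59 on the PBS array and 4.15 on the Tbx6 array of day 7, both at background. At day 30 it read 13.37 after PBS and 11.74 after Tbx6, both far above background. Day 30 was therefore higher by at least 7.57 (191-fold) after PBS and by at least 5.97 (62.6-fold) after Tbx6. With every reading at background raised to the highest background probe set, a setting chosen after seeing the data, 7.57 and 5.97 ranked highest of all 9753 genes in their comparisons (rank 1). The next genes were at 5.40 (Gstk1) after PBS and at 5.92 (Scd1) after Tbx6, so after Tbx6 the bound was close to the next gene. As deposited the differences were 7.78 and 7.59, values that use day 7 readings at background and are not exact. Of the filtered genes, 153 (1.57%) were at background on each day 7 array and above it on each day 30 array, and Cyfip2 was among them. By the lower of its day 30 readings Cyfip2 ranked highest of the 153 (rank 1). It passed the expression filter through its day 30 readings, the same values that are ranked here. Genes at background at day 7 pass that filter more readily when day 30 is high, which shapes the 153. The ranks are therefore a description.

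Between injections Cyfip2 was lower after Tbx6 at day 30, with a difference of -1.63 (3.1-fold), at rank 6 from the lowest of the 9753 genes. Cyfip2 was chosen by this difference, so the rank follows from the choice. At day 7 no difference can be given, because both readings were at background. The value at day 30 thus rests on 1 array against 1, and on a gene that was high at that day alone. Of the skeletal muscle markers, 6 of 7 (Myh1, Myh2, Myh4, Tnnt3, Tnni2 and Myod1) were at background on every array. The other, the skeletal actin gene Acta1, which heart muscle also expresses, read 13.18 and 13.19 at day 7 after PBS and Tbx6, and 17.28 and 15.92 at day 30. It was thus highest on the array on which Cyfip2 was highest. All 6 measured neuronal and glial markers were at background on every array. The summed level of the myeloid markers was 10.85 and 10.33 at day 7 after PBS and Tbx6 and 12.64 and 13.02 at day 30. Lyz2 carried that sum, at 10.35 and 9.77, then 12.40 and 12.82. Csf1r read 7.82 and 7.40, then 9.27 and 9.33, and Ptprc 6.64 and 6.23, then 6.94 and 7.35. Adgre1 read 7.15 and 6.85, then 7.01 and 7.58, so after PBS it was lower at day 30. Of the 6 measured, 4 were above background at day 7 and 5 at day 30, and Cd14 was at background throughout. The part of Acta1-expressing or myeloid cells in the Cyfip2 readings was not tested.

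The sequence before the transcription start is printed for Cyfip2 and Baiap2l1, whose readings moved most, and for Baiap2, the paralogue that stayed at background. RefSeq promoter windows (GRCm38.p6) were found for 6 of the 9 members, and the 250 bases before the listed start are shown 5′ to 3′ on the gene's strand. Capitals mark GC boxes (GGGCGG) and E-boxes (CANNTG), searched on both strands. The Cyfip2 window is chr11:46312359-46312608 on the minus strand, that of Baiap2l1 is chr5:144358113-144358362 on the minus strand, and that of Baiap2 is chr11:119942842-119943091 on the plus strand. The RefSeq records of Cyfip2 and Baiap2 also reach further upstream, so these starts are not their only ones.
Cyfip2: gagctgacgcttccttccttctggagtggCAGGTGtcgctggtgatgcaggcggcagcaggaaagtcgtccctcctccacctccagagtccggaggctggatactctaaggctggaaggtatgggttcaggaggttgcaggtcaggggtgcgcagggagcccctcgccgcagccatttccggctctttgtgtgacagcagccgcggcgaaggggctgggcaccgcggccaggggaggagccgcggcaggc
Baiap2l1: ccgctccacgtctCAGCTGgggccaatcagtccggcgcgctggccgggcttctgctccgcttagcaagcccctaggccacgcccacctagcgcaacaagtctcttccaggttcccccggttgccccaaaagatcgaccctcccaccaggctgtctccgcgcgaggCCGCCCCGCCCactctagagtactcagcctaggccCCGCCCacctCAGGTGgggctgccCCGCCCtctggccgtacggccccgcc
Baiap2: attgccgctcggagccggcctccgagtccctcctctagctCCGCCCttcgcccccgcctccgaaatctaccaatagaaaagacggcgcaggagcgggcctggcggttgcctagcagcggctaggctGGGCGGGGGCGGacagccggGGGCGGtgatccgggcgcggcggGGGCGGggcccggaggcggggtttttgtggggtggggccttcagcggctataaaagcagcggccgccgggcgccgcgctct

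All 3 windows were richer in G and C than most. The share of G and C was 66.4% in Cyfip2, 70.4% in Baiap2l1 and 72.8% in Baiap2, against a median of 52.4% over 32536 windows of the same length. CpG pairs numbered 16, 21 and 31 in that order, against a median of 6. The Cyfip2 window held 1 E-box and 0 GC boxes, the Baiap2l1 window 2 E-boxes and 4 GC boxes, of which a pair overlaps by 1 base, and the Baiap2 window 0 E-boxes and 5 GC boxes. An E-box occurs in 66.2% of all windows and a GC box in 33.0%. Baiap2 also holds a TATA box (TATAAA) 28 to 33 bases before the start, a motif found in 12.3% of windows. The T-box half-site AGGTGTGA, present in 1.12% of windows on either strand, was in no member's window, and its core GGTGTG (16.3% of windows) was in that of Wasf2 alone. These are letter matches and not binding sites.

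Neighbouring genes did not share the Cyfip2 pattern. On chromosome 11, in RefSeq gene order, Nipal4 and Sox30 on one side and Fndc9 on the other were at background on all 4 arrays. Adam19, a metalloprotease gene, read 10.59 and 9.92 at day 7 after PBS and Tbx6 and 7.12 and 6.89 at day 30, so it was lower where Cyfip2 was higher.

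**Figure D2:**
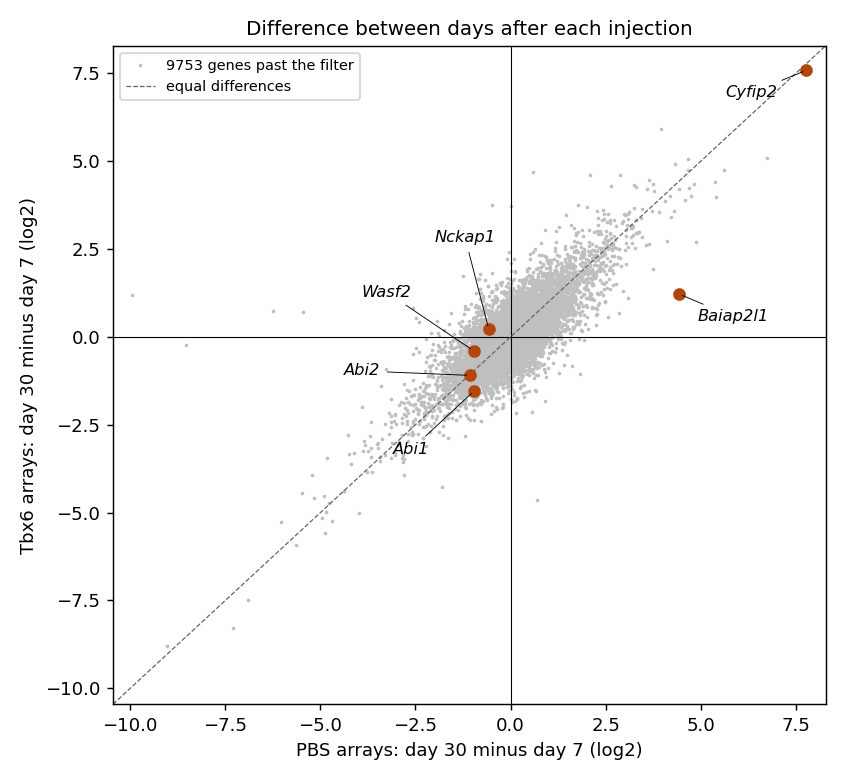
Day 30 minus day 7 (log2) on the PBS arrays (horizontal) and on the Tbx6 arrays (vertical) for 9753 genes (grey), with the 6 members past the filter named; the dashed line marks equal differences. Cyfip2 is at the far upper right at 7.78 and 7.59, as deposited and with both day 7 readings at background, and Baiap2l1 lies far below the line at 4.44 and 1.22.

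The partner that holds the Cyfip subunit, Nckap1, read at a high level throughout. On the PBS and Tbx6 arrays it read 13.40 and 12.66 at day 7, then 12.83 and 12.89 at day 30. The PBS array of day 7 was the highest and the other 3 lay within 0.23 of each other. Day 30 minus day 7 was -0.57 after PBS and 0.23 after Tbx6, and the mean of -0.17 (SE 0.28) did not pass (Benjamini-Hochberg adjusted p of 0.677 by limma's additive model). Without the PBS array of day 7 it was 0.20, so its sign rests on that array.

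Wasf2 and Wasf1 encode the WAVE proteins that switch on Arp2/3, and Wasf1 is best known from brain. Wasf2 read 12.77 and 12.55 at day 7 after PBS and Tbx6, and 11.79 and 12.16 at day 30. The day difference was -0.97 after PBS and -0.39 after Tbx6. Its mean of -0.68 (SE 0.26) did not pass, with an adjusted p of 0.0874 by limma (0.0391 to 0.294 over 12 alternative settings). Wasf1 read between 3.42 and 4.39 and was at background on all 4 arrays. No change of Wasf1 was measurable, and the paralogues cannot be compared beyond this.

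Abi1 and Abi2 encode the adaptors that bind the WAVE proteins and recruit Abl kinases, and both fell between the days. Abi1 read 9.36 and 9.29 at day 7 after PBS and Tbx6, and 8.40 and 7.75 at day 30. Abi2 read 8.56 and 8.79 at day 7, and 7.50 and 7.70 at day 30. Both genes were lower at day 30 by at least 1.5-fold after each injection. Of all 9753 genes 21.5% were so after PBS and 21.2% after Tbx6. Abi1 fell by 1.25 (SE 0.26, 2.38-fold), with an adjusted p of 0.00988 by limma (0.000375 to 0.0807 over 12 alternative settings). Abi2 fell by 1.08 (SE 0.24, 2.11-fold), with an adjusted p of 0.0131 by limma (0.00126 to 0.0721). The call of Abi1 was lost without the Tbx6 array of day 30 (difference -0.93) and that of Abi2 without the PBS array of day 30 (-0.98).

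The paralogues were nearly equal in their day difference after PBS, at -0.96 for Abi1 and -1.06 for Abi2. After Tbx6 it was -1.54 for Abi1 and -1.10 for Abi2. The gap between them after Tbx6 came from the day 30 array, where Tbx6 minus PBS was -0.65 in Abi1 (1.57-fold lower) and 0.20 in Abi2. At day 7 the injections differed by -0.07 in Abi1 and 0.23 in Abi2. With 1 array per group the difference between the paralogues was not tested.

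Markers of other heart cells also differed between the days. The summed level of the 5 measured fibroblast markers was 19.12 and 19.13 at day 7 after PBS and Tbx6 and 18.42 on both arrays of day 30, a sum that Dcn (18.36 and 18.47, then 18.34 on both) carried almost alone at day 30. The other 4 were lower at day 30 than at day 7. After PBS and Tbx6, Col1a1 read 14.01 and 13.79 at day 7 and 10.12 and 10.54 at day 30, Col3a1 17.20 and 17.19, then 13.91 and 13.84, Postn 15.55 and 14.95, then 10.34 and 11.03, and Col1a2 13.95 and 13.75, then 10.75 and 10.98. The summed level of the 5 endothelial markers was 16.60 and 16.48 at day 7 and 15.59 and 15.67 at day 30. Cdh5 carried most of that sum, at 15.99 and 15.80, then 14.93 and 15.04. Pecam1, Kdr and Tek were also lower on each day 30 array than on either day 7 array. Vwf went the other way, and its day 30 readings of 8.78 and 9.25 were above both of its day 7 readings. All markers of both lists were above background on every array. Their part in the lower Abi1 and Abi2 readings was not tested.

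Among the 4 members past the filter whose choice did not use their own readings, 2 fell, 0 rose and 2 did not pass. Over all 9753 genes 26.3% passed this test, 14.2% as higher and 12.1% as lower at day 30. With 4 genes, the 2 calls are values of Abi1 and Abi2 and not a result about the complex.

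**Figure D3:**
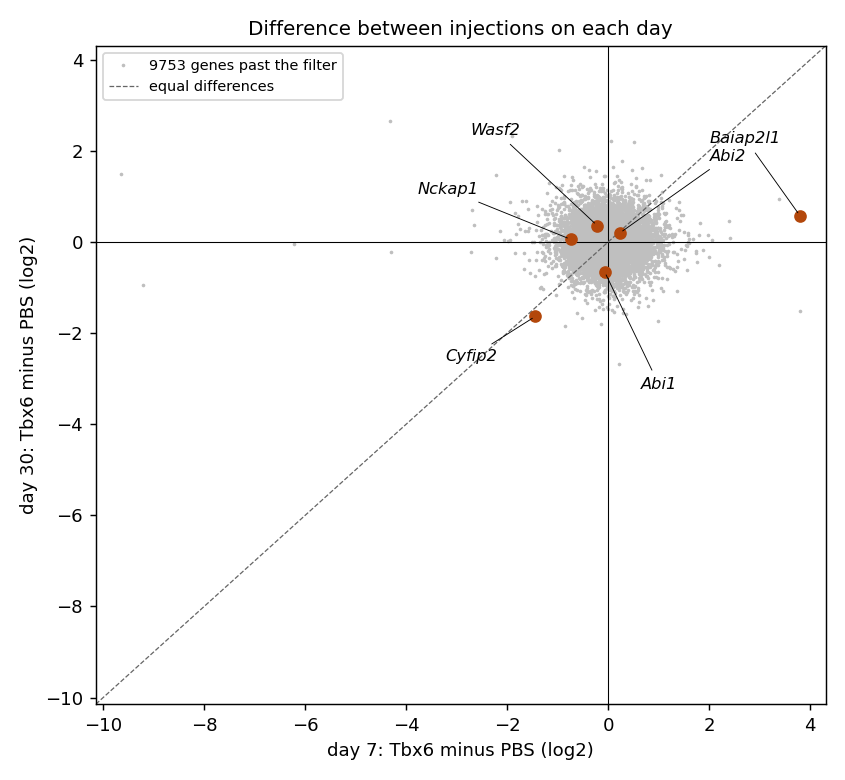
Tbx6 minus PBS (log2) at day 7 (horizontal) and at day 30 (vertical) for 9753 genes (grey), with the 6 members past the filter named. Baiap2l1 is far right at 3.80 and 0.58, while Cyfip2 is at -1.63 at day 30 with a day 7 value between readings at background.

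Baiap2l1, which encodes the I-BAR adaptor IRTKS, was low on a single array. On the PBS and Tbx6 arrays it read 7.54 and 11.34 at day 7, then 11.98 and 12.56 at day 30. The PBS array of day 7 was lower than each of the other 3 by at least 3.80, and in no other of the 9753 genes was that array lower than each of the others by 2 or more. Tbx6 minus PBS was thus 3.80 (13.9-fold) at day 7, rank 2 from the highest, and 0.58 (1.49-fold) at day 30, just under the size rule. Baiap2l1 was chosen by this day 7 difference, so its rank and the gap on the PBS array are a description. Day 30 was higher than day 7 by 4.44 (21.6-fold) after PBS and by 1.22 (2.32-fold) after Tbx6. The comparison after Tbx6 does not use that array, and in it 91.3% of the 9753 genes had a smaller value.

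The same PBS array was higher than each of the other 3 by 2 or more in 5 genes, Cwc22, Egr1, Scgb1a1, Scgb3a1 and Ucp1. Airway and lung markers had a summed level of 13.25 on it and of 7.07 to 7.60 on the others, with 3 of 8 above background on it and Sftpc, Sftpa1, Sftpb, Cldn18 and Epcam at background throughout. These markers were high where Baiap2l1 was low. The adipocyte list had a summed level of 17.14 on it against 17.07, 16.46 and 16.72 after Tbx6 at day 7, after PBS at day 30 and after Tbx6 at day 30, with Plin1 and Lep at background on every array. Fabp4, at 17.10, 17.06, 16.46 and 16.70 in the same order, carried that sum. Ucp1 read 11.92 on the day 7 PBS array and 7.60 and 8.34 on the Tbx6 arrays of day 7 and day 30. After PBS at day 30 it was at background. Adipoq, at 7.98, 6.08, 7.49 and 9.83 in the order given for Fabp4, was highest on the Tbx6 array of day 30. Cidec was also highest there, at 7.88 against 7.10 on the day 7 PBS array. Of the erythroid list 2 of 4 were measured, both above background on every array. Their summed level was highest on the day 7 PBS array, at 12.57 against 10.93, 9.63 and 9.96 in the same order. Alas2 carried that sum, at 12.52 against 10.73, 9.24 and 9.82. Slc4a1 read 7.72 on the day 7 PBS array against 7.97, 7.53 and 6.55, so it was highest on the Tbx6 array of day 7. The part of these lists in the Baiap2l1 reading was not tested.

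The paralogue Baiap2, which encodes IRSp53 and is best known from synapses, read 3.46 and 3.71 at day 7 after PBS and Tbx6 and 3.60 and 3.95 at day 30. All readings were at background, so no difference can be given and Baiap2 shared none of the Baiap2l1 pattern at a measurable level. The neighbour of Baiap2l1 on chromosome 5 that was above background, Bri3, read 10.66 to 10.98 on the 4 arrays and did not dip on the PBS array of day 7. The neighbours Nptx2, Tecpr1, Bhlha15 and Tmem130 were at background throughout.

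Counts over the 6 members past the filter are given with those over all 9753 genes. At day 7 the deposited values of the injections differed by at least 1.5-fold in 3 of 6 members, where 15.6% of all genes did (7.23% higher and 8.41% lower). A difference was measured in 2 of them, Baiap2l1 (higher after Tbx6) and Nckap1 (-0.74, 1.67-fold lower). The third was Cyfip2, both of whose readings were at background, and with background readings raised the count was 2. At day 30 it was 2 of 6 (Cyfip2 and Abi1, both lower), where 13.2% of all genes did (7.13% higher and 6.06% lower). The choice of members used these contrasts, so nothing is read from the counts. After PBS the days differed by at least 1.5-fold in 5 of 6 members (2 higher and 3 lower), against 43.4% of all genes (21.9% higher and 21.5% lower), and after Tbx6 in 4 of 6 (2 higher and 2 lower), against 44.1% (22.9% higher and 21.2% lower). The comparisons between days share their arrays with those between injections.

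By limma's additive model 0 of the 9753 genes (0%) passed for injection, with 421 at an unadjusted p below 0.05.

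The other genes of the pathway were read from 7 lists with 86 genes, of which 80 were measured and 67 were past the filter. Between the days 10 of the 67 fell (14.9%), 1 rose (1.49%) and 56 did not pass, and the median difference was -0.20 against -0.02 for all 9753 genes. The share that fell was near the 12.1% of all genes, and the share that rose was below their 14.2%. The calls of Mtss1, Actr3, Cttn, Vasp and Evl, 5 of the 11, held under all 12 alternative settings.

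**Figure D4:**
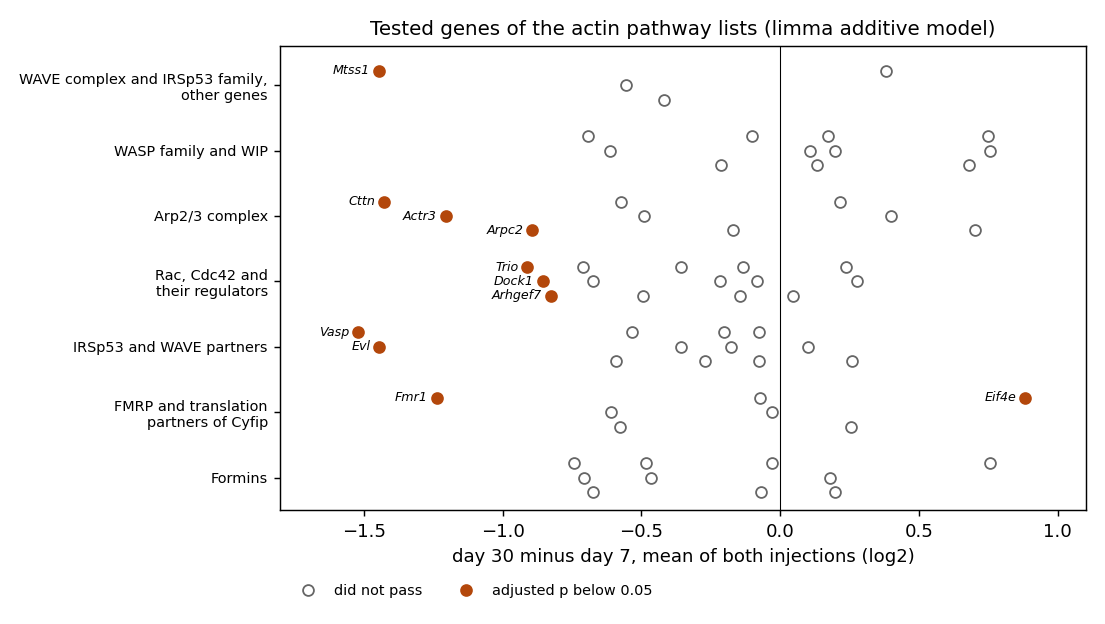
Day 30 minus day 7 (log2, mean of both injections, horizontal axis) for each tested gene of the 7 pathway lists (rows); filled points passed limma's test at an adjusted p below 0.05. Of the 67 tested genes 10 passed to the left of 0 and 1, Eif4e, to the right.

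Among the other WAVE and IRSp53 relatives, 1 of 4 tested genes fell and 0 rose, against 12.1% and 14.2% of all 9753 genes. The median was -0.49. Mtss1, an I-BAR protein that bends membranes, fell by 1.45 (adjusted p of 0.00457 by limma), from 9.41 and 9.65 at day 7 to 8.18 and 7.98 at day 30. Its relative Mtss2 differed by -0.55 and Brk1, the small WAVE subunit, by 0.38, and neither passed. Abi3 read 6.66 and 6.08 at day 7 and 6.13 at day 30 after PBS, and was at background at day 30 after Tbx6. Nckap1l, the Nckap1 paralogue of blood cells, and Wasf3 and Baiap2l2 were at background on all 4 arrays.

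Genes of the Arp2/3 complex and its helpers fell in 3 of 9 tested and rose in 0, against 12.1% and 14.2% of all 9753 genes. The median was -0.49. With 9 genes, the calls are values of single genes and not a result about the complex. The Arp3 gene Actr3 fell by 1.21 (adjusted p of 0.00899), from 13.68 and 13.55 to 12.34 and 12.48, and the subunit gene Arpc2 fell by 0.89 (0.0274). Cttn, which encodes cortactin, a protein that steadies actin branches, fell by 1.43 (0.00395). The subunit gene Arpc5l differed by 0.70 in the other direction and did not pass. The call of Arpc2 was lost in 4 of 12 alternative settings. These values are by limma.

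Of the Rac, Cdc42 and regulator list 3 of 14 tested genes fell and 0 rose, against 12.1% and 14.2% of all 9753 genes. The median was -0.29. The exchange factor genes Dock1 (-0.86), Trio (-0.91) and Arhgef7 (-0.83) fell (adjusted p of 0.0322, 0.0288 and 0.0371 by limma), and each call was lost without the PBS and also without the Tbx6 array of day 30. Both day 30 readings of Trio were at background, so the deposited -0.91 is not exact. The bounds are -0.73 or lower after PBS and -0.67 or lower after Tbx6. Elmo1, the partner of Dock1, differed between days by -0.96 after PBS and -0.46 after Tbx6 and did not pass.

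Of the IRSp53 and WAVE partners 2 of 12 tested genes fell and 0 rose, against 12.1% and 14.2% of all 9753 genes. The median was -0.24. Vasp and Evl, of the Ena/VASP family that lengthens actin filaments, fell by 1.52 (adjusted p of 0.00402) and 1.44 (0.0038) by limma. Vasp read 10.56 and 10.82 at day 7 after PBS and Tbx6, and 9.31 and 9.03 at day 30. Evl read 9.18 and 9.37, then 7.79 and 7.87. Apbb1ip differed between injections at day 30 by -1.03, from 7.13 to 6.10. Nck2 exceeded background only on the day 7 PBS array.

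In the list of FMRP and translation partners 1 of 7 tested genes fell and 1 rose, against 12.1% and 14.2% of all 9753 genes. The median was -0.07. Fmr1, which encodes FMRP, fell by 1.24 (adjusted p of 0.00752 by limma), from 11.16 and 11.51 to 9.96 and 10.24. Eif4e, which encodes the cap-binding factor, rose by 0.88 (0.045), from 10.99 and 11.35 to 12.25 and 11.86. The call of Fmr1 was lost without the PBS array of day 30, and that of Eif4e in 5 of 12 alternative settings. Nufip1 differed by -0.61 and Eif4ebp1 by -0.58, and neither passed.

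In the WASP and WIP list and in the formin list, 0 of 11 and 0 of 10 tested genes passed by limma. Of all 9753 genes 26.3% did. The medians were 0.13 and -0.27. Wipf1, a WASP-binding protein gene, was higher after Tbx6 at day 7 by 1.44, from 6.08 to 7.52, and read 6.67 and 6.51 at day 30. Washc3 differed between the days by 0.75, Wipf3 by 0.68 and Washc2 by -0.61. Among the formins, which start unbranched filaments, Fmn1 differed between injections at day 30 by -1.01. Over both injections Fmnl1 differed between the days by 0.76. Inf2 differed between the days by -0.43 after PBS and by -0.76 or lower after Tbx6, where its day 30 reading was at background. Diaph3 exceeded background only on the day 7 PBS array.

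The pathway genes were also compared between injections by the size rule. At day 7, 1 of the 67 was at least 1.5-fold higher after Tbx6 and 4 were lower (7.46% against 15.6%), and at day 30, 2 were higher and 4 lower (8.96% against 13.2%), with Shank3 among the 4 at background in both readings. These shares are a description of single arrays.

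**Figure D5:**
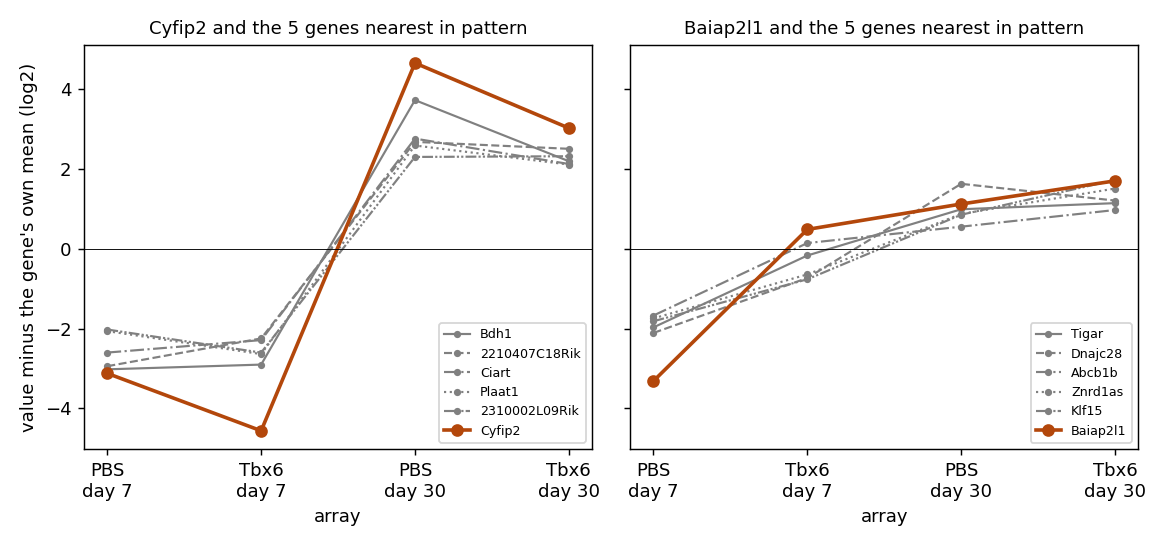
Log2 value minus the gene's own mean over the 4 arrays (vertical axis) for Cyfip2 and Baiap2l1 (coloured) and for the 5 genes nearest to each in pattern (grey lines). Cyfip2, Bdh1, 2210407C18Rik, Ciart and Plaat1 are highest on the PBS array of day 30, and no grey line is as low on the PBS array of day 7 as Baiap2l1.

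Genes nearest in pattern were found by the root mean square difference of centred log2 values over the 4 arrays, among 9752 other genes. For Cyfip2 the nearest was Bdh1, an enzyme of ketone body metabolism, at 1.04, followed by 2210407C18Rik (1.55), the clock repressor gene Ciart (1.57), Plaat1 (1.58) and 2310002L09Rik (1.67). All 5 were at background in both day 7 readings and above it in both day 30 readings. The choice used all 4 readings, so a shared pattern follows from it. At day 30 the PBS and Tbx6 arrays gave 10.32 and 8.78 for Bdh1, 9.40 and 9.23 for 2210407C18Rik, and 9.60 and 8.97 for Ciart. They gave 8.49 and 8.02 for Plaat1 and 9.94 and 9.96 for 2310002L09Rik. For Baiap2l1 the nearest were Tigar (0.80), Dnajc28 (0.93), Abcb1b (0.96), Znrd1as (0.98) and Klf15 (0.98), each with a day 7 PBS reading at background. Klf15 was at background on both day 7 arrays, and Abcb1b on all but the Tbx6 array of day 30. Readings at background enter these distances as deposited, so the distances and their order are not exact.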

How the data were processed

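Heart RNA of 4 groups was measured on 1-colour mouse Clariom S arrays, 1 per group. The authors ran SST-RMA in Affymetrix Expression Console 1.4, per the labels and the submitters' notes, and the deposited values are read as log2. The log base is not given in the sources used here and was taken from their range (up to 19.9). The top value was 19.93 on every array, and Actc1 (19.70) and Pln (19.83) each read the same on all 4. Differences near that limit cannot be read. Whether the processing enlarged or compressed differences was not tested. The number of arrays limits the precision.

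The 28846 probe sets included 19572 with 1 gene symbol in the platform annotation. For genes with several, the one with the highest mean was kept, which left 19505 genes. The expression filter was the median of the gene means, 5.30. Differences were taken as deposited. An additive model with injection and day was fitted to all 9753 filtered genes with limma 3.58.1 (lmFit, eBayes, two-sided, Benjamini-Hochberg, threshold 0.05) in R 4.3.3. It leaves 1 residual degree of freedom, which is how far the day difference after Tbx6 departs from that after PBS. The PBS and Tbx6 arrays of a day thus stand in for replicates, which the series lacks. SEs and p-values rest mostly on variance borrowed from the same residuals of other genes. The fit cannot separate technical spread, spread between animals and a day difference that depends on the injection. The step was also run on simulated data with independent noise and the same day difference after both injections. That run therefore does not test this limit. A list's summed level is the log2 of its summed linear values. The other steps used Python 3.11.15, numpy 2.4.6, pandas 2.3.3 and matplotlib 3.10.9.

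The members, lists and naming rules were chosen with earlier results of these data known. The text names all members, the 4 genes per list with the largest differences, those that passed, and the 5 nearest in pattern. Other genes were named after their values were seen. Alternatives were quantile normalisation, median centring, other filters and variance priors, day as the only term, raised background readings and leaving out each array.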

Additional observations from a re-analysis of the deposited data

Results flagged for a closer look

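In Wasf2 and Nckap1 the difference between injections had opposite signs on the 2 days. Tbx6 minus PBS in Wasf2 was -0.22 at day 7 and 0.36 at day 30. In Nckap1 it was -0.74 at day 7 and 0.060 at day 30. In Nckap1 the day difference also had opposite signs, at -0.57 after PBS and 0.23 after Tbx6. With 1 array per group none of these differences between groups was tested.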

How the results depend on the processing

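Quantile normalisation and median centring left every count of members as it was or within 1.5 times of it. With a size rule of 2-fold, members that differed between injections at day 30 numbered 1 in place of 2, and between days after PBS 3 in place of 5. Members that passed limma's day test numbered between 1 and 2 when 1 array was left out, with 1 without the PBS array and 1 without the Tbx6 array of day 30, fits that hold fewer samples and 1 residual degree of freedom. The day difference of Nckap1, -0.17, lay between -0.54 and 0.20 when 1 array was left out, and turned positive without the PBS array of day 7, and the cause was not tested. Pathway genes that fell numbered 10, and 5 or 6 without the PBS or the Tbx6 array of day 30. Those that rose numbered 1 and were 0 to 6 over the alternatives. With background readings raised, the value for Cyfip2 between injections at day 7 was -0.03. That is the gap between the background limits of the arrays, and no difference of Cyfip2 was measured. No paired analysis was possible because each group held 1 array.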
